A study of Mus musculus with 12 samples.

Results

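The 6 genes described here, Cadm3, Sox10, S100b, Gfra3, Ngfr and Prx, were grouped as genes known from Schwann cells and peripheral nerve. They were followed in left ventricles (LVs) of mouse offspring that did or did not carry a deleted Hif1a allele and did or did not develop in a diabetic mother. The members were found through the Ensembl identifiers of the count tables and make up 6 of the 46983 genes listed there. All 6 passed the filter on low counts that left 14706 genes for testing. They were selected on their measured levels across the 4 groups of these same samples, so their own values are given as a description, without p values.

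RNA was taken from the LV of 12 offspring of the inbred FVB strain at 12 weeks of age, and 3′-seq libraries, which count reads from the 3′ end of transcripts, were made from 3 LVs in each of 4 groups. The groups were Wt from non-diabetic pregnancy, Wt from diabetic pregnancy, Hif1a+/- from non-diabetic pregnancy and Hif1a+/- from diabetic pregnancy. Diabetes was induced in Wt females with streptozotocin before they were mated with non-diabetic Hif1a+/- males, so the mothers of all 4 groups were Wt, and the Hif1a+/- offspring carried 1 deleted allele in every cell type. The 3 animals of a group came from different litters, and each is named below by the animal number of its label.

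The cardiac nerves are bundles of axons wrapped by Schwann cells, glia that derive from the neural crest. Sox10 keeps these glia in their lineage, and S100b is a calcium-binding protein long used to mark them. Cadm3 is an adhesion molecule of axons that binds Cadm4 on the Schwann cell, Gfra3 and Ngfr are receptors for neurotrophic factors, and Prx (periaxin) ties the myelinating Schwann cell's membrane to its cytoskeleton. Most fibers of the ventricle are unmyelinated sympathetic axons, whose cell bodies lie in ganglia outside the heart.

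Cadm3 was higher in all 3 Hif1a+/- LVs from diabetic pregnancy than in any of the other 9 LVs. Its mean there was 11.3 ± 6.15 CPM (read counts scaled to a common library size by the TMM method; SD, n = 3), against 3.99 ± 1.0 in Hif1a+/- from non-diabetic pregnancy. The other 5 members had their lowest group mean in the same LVs, and their summed level there was 4.72 ± 0.813 CPM, against 6.03 ± 0.646 CPM in Hif1a+/- from non-diabetic pregnancy. The 6 genes thus had no common direction. In bulk tissue, fewer cells of a type and less RNA per cell cannot be told apart.

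**Figure D1:**
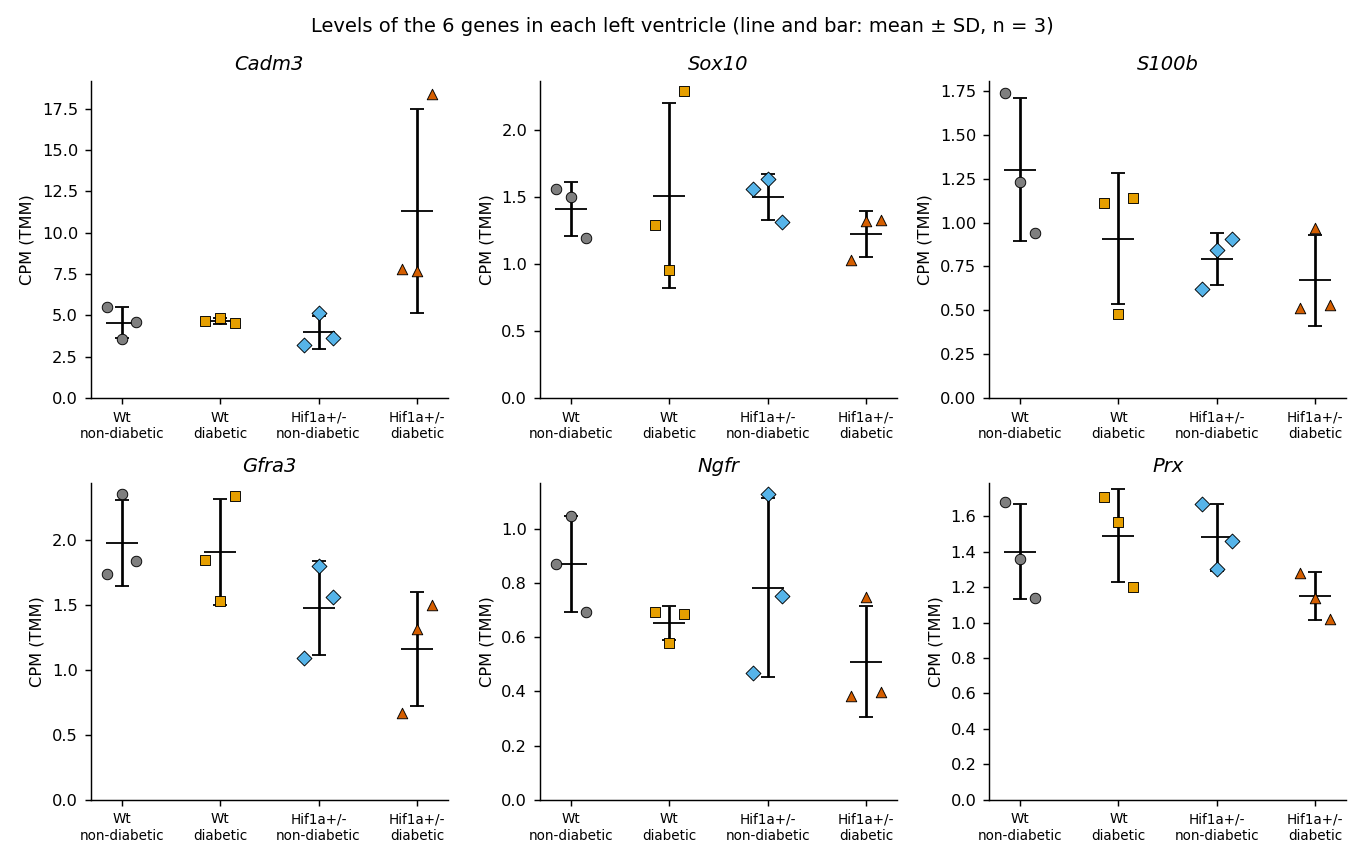
Level of each member in each LV, in CPM after TMM scaling (linear axis from 0), with the 4 groups side by side. Each point is 1 LV, and the horizontal line and bar are the mean and SD of 3 LVs. The 3 Hif1a+/- LVs from diabetic pregnancy lie between 7.66 and 18.4 CPM for Cadm3, above all others, and the same group has the lowest mean for the other 5 genes.

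Total counts per library were between 16132442 and 39812939. Cardiomyocyte marker genes summed to between 90800 and 103000 CPM in every library. Hif1a itself was not lower in Hif1a+/- libraries, with 78.8 to 89.4 CPM in the non-diabetic and 64.8 to 81.5 CPM in the diabetic group, against 47.9 to 71.8 CPM in all Wt libraries. Reads from the 3′ end can lie outside the deleted part of a gene, so this level checks neither the labels nor the deletion. The sample labels give female animals and the design text gives male ones. In 11 libraries the Y-linked gene Ddx3y was at 76.1 to 110 CPM, and in the Hif1a+/- diabetic library of animal 72 Ddx3y was at 0.352 CPM and Xist at 158 CPM. The members' estimates between the Hif1a+/- groups are also given without that library.

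The promoters of Cadm3 and Ngfr are shown because Cadm3 is the member that was higher and Ngfr is the member whose window holds ACGTG. These letters are 1 form of the core of the hypoxia response element, which HIF-1 binds. Each window runs from 250 bases before to 50 bases after the RefSeq start of the gene in GRCm38.p6 and is written 5′ to 3′ on the gene's own strand. The letters ACGTG were searched on both strands and are in capitals. The other form of the core, GCGTG, was not searched, so the counts below cover ACGTG only.
Cadm3 (chr1:173367646-173367945, minus strand): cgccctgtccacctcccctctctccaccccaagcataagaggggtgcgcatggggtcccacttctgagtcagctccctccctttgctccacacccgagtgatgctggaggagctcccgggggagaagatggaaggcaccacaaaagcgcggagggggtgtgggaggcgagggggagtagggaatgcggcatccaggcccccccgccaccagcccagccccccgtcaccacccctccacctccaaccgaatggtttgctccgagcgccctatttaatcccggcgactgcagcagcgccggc
Ngfr (chr11:95587649-95587948, minus strand): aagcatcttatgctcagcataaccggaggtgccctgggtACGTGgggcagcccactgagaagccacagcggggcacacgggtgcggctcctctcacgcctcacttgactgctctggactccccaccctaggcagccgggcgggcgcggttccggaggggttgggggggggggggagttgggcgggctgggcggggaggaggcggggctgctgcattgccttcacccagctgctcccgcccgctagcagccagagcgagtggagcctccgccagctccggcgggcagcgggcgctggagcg
The ACGTG begins at position -211 from the start of Ngfr. Of the 4 members with a window (Cadm3, Prx, S100b and Ngfr), 1 held it, as did 19.6% of the 32851 RefSeq promoter windows of the mouse. The 2 motifs bound by Sox10 and its relatives, ACAAAG and ACAATG, were searched on both strands and were found in 0 of the 4 windows, against 28.6% of all windows. These are letter matches in a short window and carry no information on binding.

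Cadm3 (ENSMUSG00000005338), the axonal adhesion molecule also called nectin-like 1, lies on chromosome 1 (GRCm38, 173333258 to 173367695, minus strand). In Wt LVs it was at 5.48, 3.59 and 4.58 CPM in animals 25, 42 and 89 from non-diabetic pregnancy and at 4.66, 4.87 and 4.51 CPM in animals 50, 7 and 80 from diabetic pregnancy. In Hif1a+/- LVs it was at 3.23, 5.13 and 3.62 CPM in animals 14, 32 and 44 from non-diabetic pregnancy and at 7.78, 7.66 and 18.4 CPM in animals 66, 72 and 77 from diabetic pregnancy. The first 3 groups overlapped one another, whereas every diabetes-exposed Hif1a+/- LV lay above them, as did 1.18% of all tested genes. Animal 77 stood far above its own group. Behind these levels were 72 to 416 reads per library, with a counting error of about 9.61% of the mean. The spread between animals was 54.6% of the mean in diabetic Hif1a+/-, with animal 77, and 3.83% in diabetic Wt, below the counting error there of 9.85%.

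The log2 fold change of Cadm3 between diabetic and non-diabetic pregnancy was 1.5 ± 0.31 (SE) in Hif1a+/-, a 2.83-fold difference, and 0.05 ± 0.32 in Wt. The difference of these effects, the genotype by pregnancy interaction, was 1.45 ± 0.45. Diabetes-exposed Hif1a+/- LVs were higher than diabetes-exposed Wt by 1.26 ± 0.31 and higher than Wt from non-diabetic pregnancy by 1.31 ± 0.31. Loss of the Hif1a allele alone came with a difference of -0.19 ± 0.33. Without animal 77 the 3 differences of the diabetes-exposed Hif1a+/- group fell to 0.96 against its own genotype, 0.72 against diabetic Wt and 0.77 against non-diabetic Wt, and without animal 72 they were 1.72, 1.47 and 1.52. These 3 comparisons share the diabetes-exposed Hif1a+/- samples, so they are not separate observations.

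Between diabetic and non-diabetic Hif1a+/-, Cadm3 was 1 of 1640 genes (11.2% of those tested) whose 3 samples all lay above the other 3. For diabetic Hif1a+/- this share was 4.32% against diabetic Wt and 7.47% against non-diabetic Wt. At an adjusted p under 0.1, edgeR's quasi-likelihood test called 0 of the 6 members and 0.0% of all genes in each of the 6 comparisons, with 1764 genes at an unadjusted p under 0.05 between diabetic and non-diabetic Hif1a+/-. DESeq2 at the same threshold called Cadm3, 1 of 6 members, in this comparison (1.44% of genes), against diabetic Wt (0.155%) and against non-diabetic Wt (0.454%). DESeq2 called 0 of the 6 members in diabetic against non-diabetic Wt (0.0148%), in non-diabetic Hif1a+/- against Wt (0.00369%) and in the interaction (0.0%). With no filter on low counts, edgeR called Cadm3 in 4 comparisons: between the Hif1a+/- groups (2.19% of genes called), against diabetic Wt (0.812%), against non-diabetic Wt (1.64%) and in the interaction (0.288%). It then called 0 members in diabetic against non-diabetic Wt (0.476%) and in non-diabetic Hif1a+/- against Wt (0.122%). The contrasts with diabetes-exposed Hif1a+/- are the ones in which the member was seen before it was chosen. These calls of Cadm3 therefore repeat its selection and are no separate evidence for it.

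**Figure D2:**
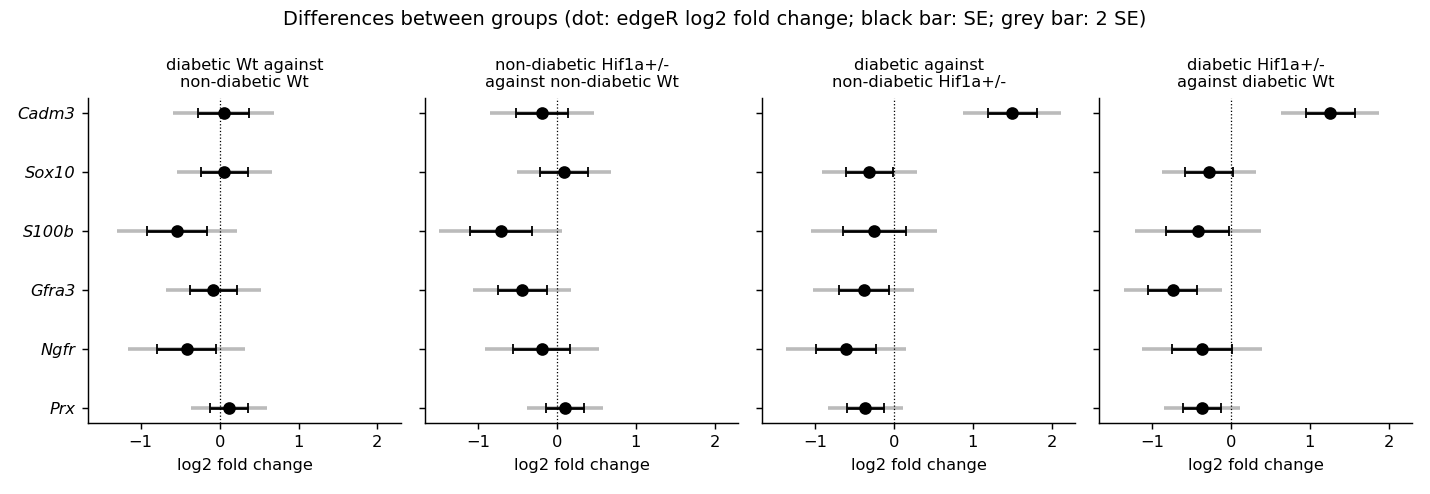
edgeR log2 fold change of each member in 4 comparisons (x axis, the same scale in each panel), with a dot for the estimate, a black bar for 1 SE and a grey bar for 2 SE. Cadm3 stands at 1.5 and 1.26 in the 2 comparisons of diabetes-exposed Hif1a+/- LVs and near 0 in the other 2, and the other 5 members lie left of 0 in both of the former.

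Cadm3 shares ground with neighbouring genes. Its 3′ end overlaps Ackr1, the atypical chemokine receptor of venule endothelium and red cells, on the same strand, with 361 exon bases in common at 173333390 to 173333750. Ackr1 had 2 to 8 reads in 11 libraries and 36 reads (1.59 CPM) in animal 77, the animal with the highest Cadm3. Aim2, a DNA sensor on the opposite strand, shares no exon base with Cadm3 and was at 2.36 to 4.28 CPM, with the 3 diabetes-exposed Hif1a+/- LVs at 2.67, 3.52 and 3.09 CPM. Reads that fall on 2 genes were set aside by the counting and made up 3.24% to 3.49% of a library. The part of Ackr1 in the Cadm3 level of animal 77 was not tested.

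Sox10 (ENSMUSG00000033006; chromosome 15, 79154908 to 79165240, minus strand), the transcription factor of the glial lineage, was low in every library, with 25 to 40 reads. In Wt it was at 1.56, 1.5 and 1.19 CPM without and at 1.29, 0.954 and 2.29 CPM with maternal diabetes, in the order of animals used above. In Hif1a+/- it was at 1.56, 1.63 and 1.31 CPM without and at 1.03, 1.32 and 1.33 CPM with maternal diabetes. The 4 groups overlapped, and the widest spread was within diabetic Wt, where animal 80 was highest of all 12. The log2 fold change in diabetic against non-diabetic Hif1a+/- was -0.31 ± 0.30 (SE), and against non-diabetic Wt it was -0.21 ± 0.30. Both differences were near or below their SE, with a counting error of about 18% in a single library and a pooled spread within groups of 26.9%.

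S100b (ENSMUSG00000033208; chromosome 10, 76253853 to 76261159, plus strand) was highest in Wt from non-diabetic pregnancy. There it was at 1.74, 1.23 and 0.94 CPM, and in diabetic Wt at 1.11, 0.477 and 1.14 CPM. In Hif1a+/- it was at 0.623, 0.845 and 0.905 CPM without and at 0.514, 0.968 and 0.53 CPM with maternal diabetes. All 3 non-diabetic Hif1a+/- LVs lay below all 3 non-diabetic Wt, by a narrow margin (0.905 against 0.94 CPM), as did 2.26% of tested genes. The log2 fold change between them was -0.71 ± 0.39, and that of diabetic Hif1a+/- against non-diabetic Wt was -0.96 ± 0.38 with overlapping samples (-1.29 without animal 72). Between diabetic and non-diabetic Hif1a+/- it was -0.25 ± 0.40. The 12 to 28 reads behind each value carry a counting error of about 23.1%. The 3′ end of Dip2a runs over S100b on the opposite strand without a shared exon base, and Dip2a was at 12.2 to 19.8 CPM in all libraries.

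Of the growth factor receptors, Gfra3 (ENSMUSG00000024366; chromosome 18, 34689898 to 34720387, minus strand), which binds artemin and signals through Ret, showed the clearer order. It was at 1.74, 2.36 and 1.84 CPM in non-diabetic Wt and at 1.85, 1.53 and 2.34 CPM in diabetic Wt. In Hif1a+/- it was at 1.09, 1.80 and 1.56 CPM without and at 0.668, 1.32 and 1.5 CPM with maternal diabetes. All 3 diabetes-exposed Hif1a+/- LVs were below all 3 LVs of either Wt group, as were 7.11% of tested genes against non-diabetic Wt and 3.62% against diabetic Wt. The log2 fold changes were -0.81 ± 0.31 and -0.74 ± 0.31, and they ranged from -1.05 to -0.49 and from -0.97 to -0.42 when 1 library was left out. The margin against diabetic Wt was 1.5 against 1.53 CPM. Against non-diabetic Hif1a+/- the difference was -0.38 ± 0.32, with overlapping samples.

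Ngfr (ENSMUSG00000000120; chromosome 11, 95568818 to 95587735, minus strand), the p75 neurotrophin receptor, was the lowest member, with 9 to 23 reads per library. It was at 0.872, 1.05 and 0.695 CPM in non-diabetic Wt and at 0.692, 0.579 and 0.686 CPM in diabetic Wt. In Hif1a+/- it was at 0.467, 1.13 and 0.754 CPM without and at 0.385, 0.748 and 0.398 CPM with maternal diabetes. Diabetic Wt lay just below non-diabetic Wt (0.692 against 0.695 CPM), as did 3.4% of tested genes, and all other pairs of groups overlapped. The log2 fold change was -0.42 ± 0.37 between the Wt groups and -0.61 ± 0.38 between the Hif1a+/- groups. A difference of 1 read would undo the separation in Wt.

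Prx (ENSMUSG00000053198; chromosome 7, 27499324 to 27520214, plus strand), the periaxin gene, varied least, with a pooled coefficient of variation within groups of 16.1%, near its counting error of 18.4%. It was at 1.68, 1.36 and 1.14 CPM in non-diabetic Wt and at 1.71, 1.57 and 1.20 CPM in diabetic Wt. In Hif1a+/- it was at 1.67, 1.30 and 1.46 CPM without and at 1.28, 1.14 and 1.02 CPM with maternal diabetes. The 3 diabetic Hif1a+/- LVs lay below the 3 non-diabetic ones, again narrowly (1.28 against 1.30 CPM), as did 13.2% of tested genes. The log2 fold change was -0.36 ± 0.24. An antisense RNA over Prx, Gm15541, had 0 to 5 reads per library beside the 21 to 50 reads of Prx.

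Summed over these 5 genes, the level was 6.97 ± 1.01 CPM in non-diabetic Wt, 6.47 ± 1.28 CPM in diabetic Wt, 6.03 ± 0.646 CPM in non-diabetic Hif1a+/- and 4.72 ± 0.813 CPM in diabetic Hif1a+/- (SD, n = 3). The diabetic Hif1a+/- LVs, at 3.88 to 5.50 CPM, overlapped non-diabetic Hif1a+/- (5.41 to 6.70 CPM) and diabetic Wt (5.11 to 7.66 CPM) and lay below non-diabetic Wt (5.80 to 7.60 CPM). For each of the 5 genes the estimate for diabetic Hif1a+/- was below 0 against each of the other 3 groups, while 51.0% of all tested genes were below 0 against non-diabetic Hif1a+/-, 52.1% against diabetic Wt and 50.8% against non-diabetic Wt. Without animal 72 the estimates against non-diabetic Hif1a+/- were -0.36 for Sox10, -0.57 for S100b, -0.48 for Gfra3, -0.95 for Ngfr and -0.34 for Prx. All these estimates share the diabetic Hif1a+/- libraries.

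Across the 12 LVs the levels of Sox10, S100b, Gfra3 and Ngfr tended to go together, and those of Cadm3 and Prx did not go with them. Pearson's r of log2 CPM was 0.73 for S100b and Ngfr, 0.70 for Gfra3 and Ngfr and 0.63 for S100b and Gfra3. Among the 10 pairs without Cadm3, r was above 0 in 8, with a median of 0.47. For Prx it was -0.07 with Sox10, -0.02 with Gfra3, 0.16 with Ngfr and 0.22 with S100b. The 5 pairs with Cadm3 were all below 0, from -0.63 with Prx to -0.23 with Sox10. The points share library and depth and the counts are low, so these values describe the samples only. Within groups, after each group's mean was taken off, r ranged from -0.29 to 0.42 for the pairs with Cadm3 and from -0.64 to 0.64 for the others.

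**Figure D3:**
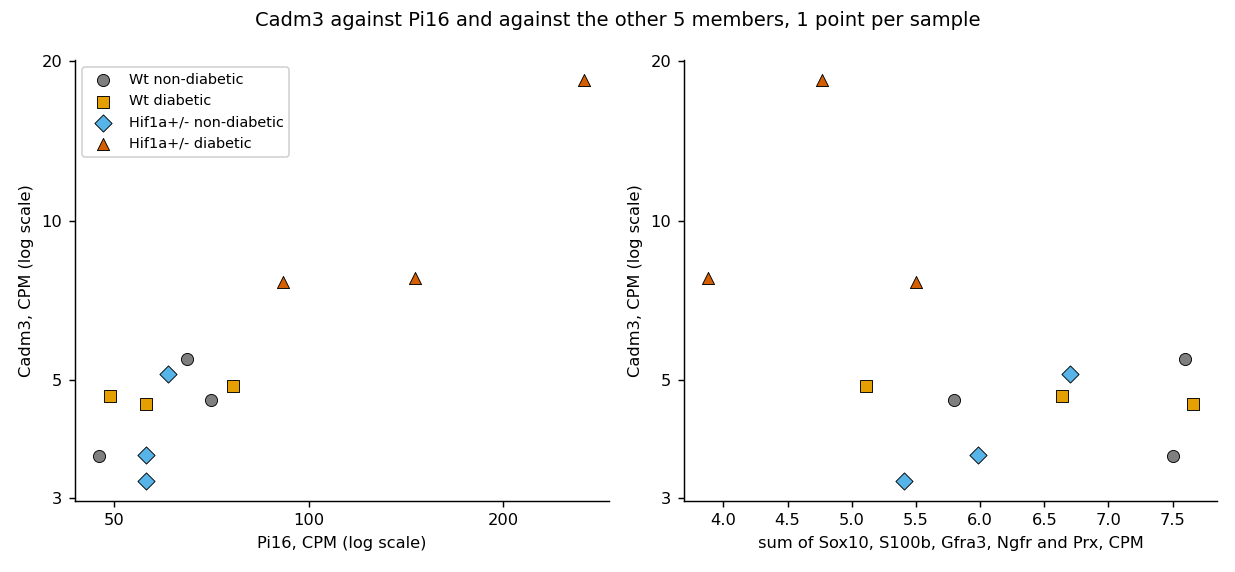
Cadm3 level (y axis, CPM on a log scale) against Pi16 (left, CPM on a log scale) and against the summed level of the other 5 members (right, CPM on a linear scale), with 1 point per LV and a symbol per group. The 3 diabetes-exposed Hif1a+/- LVs are at the upper right on the left, where animal 77 has 18.4 CPM of Cadm3 and 267 CPM of Pi16, and on the upper left on the right, at summed levels of 3.88 to 5.50 CPM.

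The genes whose levels over the 12 LVs were most like Cadm3 were Lbp (r = 0.97), Cd55 (r = 0.95) and Pi16 (r = 0.94). Lbp encodes the lipopolysaccharide-binding protein, Cd55 an inhibitor of complement, and Pi16 a protease inhibitor that marks adventitial fibroblasts, the cells around the outer wall of vessels. Within groups the 3 correlations with Cadm3 were 0.91, 0.83 and 0.80, and without animal 72 they were 0.97, 0.95 and 0.94. Spearman's rank correlations over the 12 LVs were lower, at 0.79, 0.76 and 0.82. Animal 77, the highest in both Cadm3 (18.4 CPM) and Pi16 (267 CPM), weighs on Pearson's r, also within groups. The correlations were not computed without it. The diabetes-exposed Hif1a+/- LVs form a cluster of their own in all 3 genes. The best matched genes of the other members were Gbp3, Gbp5 and Gbp7 for Sox10 (r = 0.92, 0.91 and 0.91), Gm12279 for S100b (r = 0.90), Cenpa for Gfra3 (r = 0.91), Mia3 for Ngfr (r = 0.89) and Enpp4 for Prx (r = 0.94). Gbp3, an interferon-induced GTPase gene, was at 39.9 CPM in 1 diabetic Wt library and at 15.5 CPM or less in the 9 libraries of the other groups. To the mean of the 6 members, Gm12279, Mia3 and Rcbtb2 were closest (r = 0.90, 0.89 and 0.87), and 4 of the closest 10 stayed among the closest 10 after group means were taken off.

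Of 10 markers of adventitial fibroblasts, Pi16, Cd248, Mfap5 and Clec3b were higher in the same LVs as Cadm3, above each of the other 9. The same held for 1.18% of all tested genes. Pi16 was at 146, 91.4 and 267 CPM in diabetes-exposed Hif1a+/- animals 66, 72 and 77 and at 47.5 to 76.3 CPM in the other 9 LVs. Cd248 (endosialin, a stromal surface protein) was at 24.2 to 53.6 CPM against 13.3 to 19.3 CPM, and Mfap5, a microfibril protein, at 40.4 to 56 CPM against 21.4 to 34.3 CPM. The log2 fold changes between diabetic and non-diabetic Hif1a+/- were 1.55 ± 0.30 for Pi16, 1.08 ± 0.23 for Cd248 and 0.91 ± 0.18 for Mfap5, each at an edgeR adjusted p of 0.178, with DESeq2 adjusted p values of 0.00687, 0.00238 and 0.00155. Of the 10 genes on the list, 9 had an estimate above 0 and the median was 0.54, beside -0.01 over all tested genes. DESeq2 called 5 of the 10, where it called 1.44% of all genes, and these were the 3 above with Dpt and Clec3b. edgeR called 0. The paper lists all 5 among its genes changed in diabetes-exposed Hif1a+/- hearts, from these same samples. The markers were chosen with earlier results of these data known, so the calls are no separate evidence. Without animal 72 the estimates were 1.85 for Pi16, 1.21 for Cd248 and 1.01 for Mfap5 and the median of the list was 0.61, and without animal 77 they were 1.05, 0.66 and 0.76, with a median of 0.41. The 3 samples lay above the other 3 for 6 of the 10 between the Hif1a+/- groups, where 11.2% of all tested genes did, and for 4 of the 10 against diabetic Wt, where 4.32% did. The summed level of the list was 571 to 884 CPM in diabetic Hif1a+/-, against 376 to 428 CPM in non-diabetic Hif1a+/-, 404 to 513 CPM in diabetic Wt and 357 to 452 CPM in non-diabetic Wt, and no marker was at 0 in all libraries.

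All 8 macrophage markers were higher in each diabetic than in each non-diabetic Hif1a+/- LV, as were 11.2% of all tested genes, with a median log2 fold change of 0.92 (1.03 without animal 72 and 0.73 without animal 77), and their sum was 472 to 695 CPM in diabetic against 233 to 347 CPM in non-diabetic Hif1a+/-. DESeq2 called 5 of the 8 (Lyz2, C1qa, C1qb, Mrc1 and Itgam), beside 1.44% of all genes, and edgeR called 0. The paper also lists these 5 among its changed genes, and the markers were chosen with earlier results known. Against diabetic Wt, 2 of the 8 lay above without overlap, as did 4.32% of all tested genes. The sum overlapped that of diabetic Wt, at 321 to 527 CPM. Over the 12 LVs the median r with Cadm3 was 0.76 for the 10 adventitial genes and 0.63 for the 8 macrophage genes, and after group means were taken off it was 0.56 and 0.12. For 12 Schwann cell genes and 9 axonal genes that are no members, it was -0.11 and -0.07. With group means taken off, these 2 values were 0.19 and 0.02. The part of adventitial fibroblasts and macrophages in the Cadm3 level was not tested.

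Of 12 other tested Schwann cell genes, 1 (Lgi4) lay above without overlap between the Hif1a+/- groups and 0 lay below, where 11.2% and 13.2% of all tested genes did. Erbb3, the neuregulin receptor of Schwann cells, was at 17.6 to 23.4 CPM in every library, with a log2 fold change of -0.09 ± 0.12 between diabetic and non-diabetic Hif1a+/- (edgeR adjusted p = 0.772). The cadherin gene Cdh19 was at 2.31 to 3.93 CPM in diabetic and 1.81 to 2.88 CPM in non-diabetic Hif1a+/- (0.29 ± 0.25; edgeR adjusted p = 0.654). Of the 12 tested Schwann cell genes that are no members, 8 had an estimate above 0 and 4 below between the Hif1a+/- groups, with a median of 0.13. The direction differed by reference group. For diabetic Hif1a+/-, 4 were above and 8 below 0 against non-diabetic Wt, with a median of -0.1. Against diabetic Wt, 3 were above and 9 below 0, with a median of -0.15. Kcna1, a potassium channel gene, was lower in each diabetic Hif1a+/- LV (0.221 to 0.264 CPM) than in each non-diabetic Wt (0.45 to 0.747 CPM), as were 7.11% of all tested genes, with a log2 fold change of -1.35 ± 0.43 (edgeR adjusted p = 0.473) on 5 to 15 reads per library.

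Myelin genes were measured on few reads. Mag, a myelin-associated glycoprotein, had 1 to 6 reads per library and fell under the filter on low counts. Mbp was at 2.29 to 3.74 CPM in diabetic and 2.46 to 3.04 CPM in non-diabetic Hif1a+/- (0.18 ± 0.23; edgeR adjusted p = 0.760). Pmp22, which many other cells also express, was at 57.3 to 75.2 CPM in diabetic and 51.4 to 54.8 CPM in non-diabetic Hif1a+/- without overlap, as for 11.2% of all tested genes (0.30 ± 0.11; edgeR adjusted p = 0.329). Of the 13 tested myelin genes that are no members, 0 were called by edgeR or DESeq2 in this comparison, and the median log2 fold change was 0.15. For diabetic Hif1a+/- the median of these genes was -0.029 against non-diabetic Wt and -0.085 against diabetic Wt. Among the partners of periaxin, Drp2 had 4 to 16 reads per library and a log2 fold change of -0.42 ± 0.40, and Dag1 (dystroglycan) was at 467 to 642 CPM, with -0.03 ± 0.13. Ahnak2, a large scaffold protein related to periaxin, was at 12.2 to 15 CPM in diabetic Hif1a+/- and at 7.5 to 11.8 CPM in the other 9 LVs (0.45 ± 0.17 against non-diabetic Hif1a+/-; edgeR adjusted p = 0.362). Of all tested genes, 1.18% lay above the other 9 LVs in the same way.

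Some defining genes of peripheral axons were close to the detection limit. Th, the first enzyme of noradrenaline synthesis, had 0 to 2 reads per library, Npy 0 to 2 and Prph, an intermediate filament of peripheral axons, 2 to 10. Dbh, which makes noradrenaline from dopamine, was at 2.83 to 8.28 CPM and Uchl1 at 8.26 to 11.1 CPM over all libraries. Their log2 fold changes between diabetic and non-diabetic Hif1a+/- were -0.35 ± 0.27 and 0.07 ± 0.14 (edgeR adjusted p = 0.598 and 0.862). Of the 9 tested axonal genes other than Cadm3, 5 had an estimate above 0 and 4 below. Map2, a microtubule-associated protein, was lower in each diabetic Hif1a+/- LV (2.08 to 3.17 CPM) than in every other LV (3.23 to 4.96 CPM), with a log2 fold change of -0.67 ± 0.22 (edgeR adjusted p = 0.306). In diabetic Hif1a+/-, 13.2% of all tested genes lay below non-diabetic Hif1a+/- without overlap, 3.62% below diabetic Wt and 7.11% below non-diabetic Wt.

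The other 3 Cadm genes overlapped between the Hif1a+/- groups. Cadm4, its partner on the Schwann cell, was at 20.4 to 24.5 CPM in diabetic and 23.3 to 27.9 CPM in non-diabetic Hif1a+/- (-0.17 ± 0.13; edgeR adjusted p = 0.602). Cadm1 was at 2.05 to 2.92 and 2.03 to 2.92 CPM (0.01 ± 0.26; edgeR adjusted p = 0.991), and Cadm2 at 0.177 to 0.308 and 0.273 to 0.507 CPM (-0.58 ± 0.41; edgeR adjusted p = 0.602). On 4 to 12 reads per library, Cadm2 in diabetic Hif1a+/- lay below each non-diabetic Wt (0.368 to 0.623 CPM), as did 7.11% of all tested genes. Over the 12 LVs the highest correlation of a family member with Cadm3 was that of Cadm1, at r = 0.04.

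**Figure D4:**
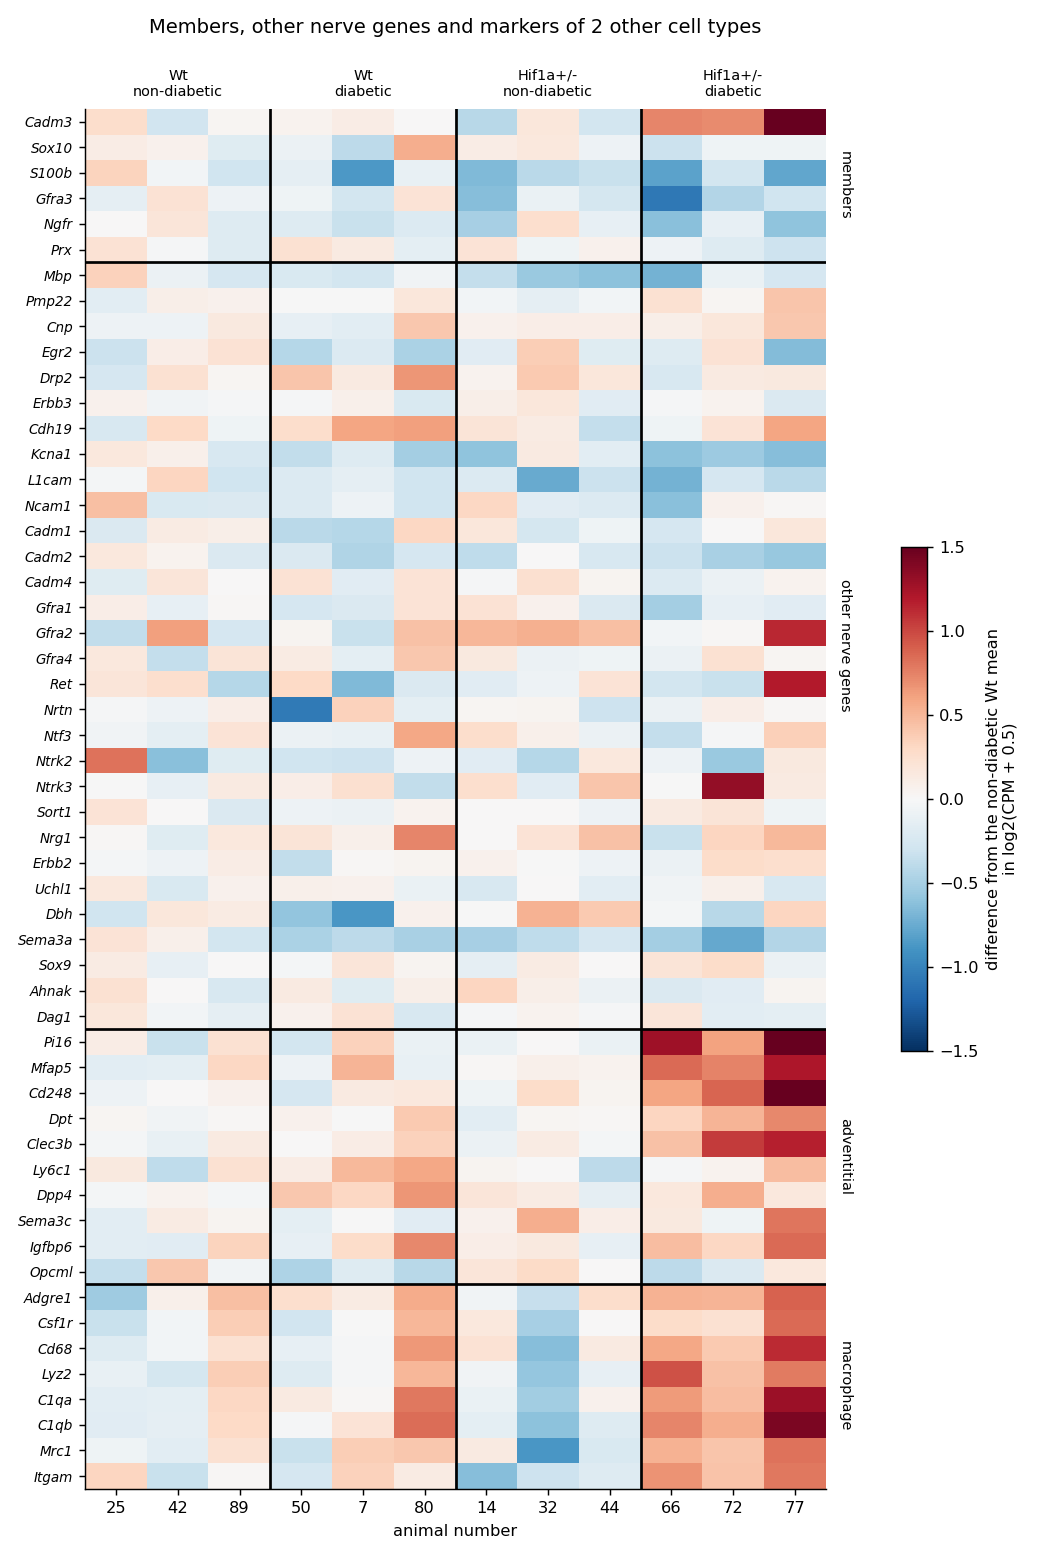
Difference of each LV (columns, named by animal number and grouped) from the mean of non-diabetic Wt in log2(CPM + 0.5), for the 6 members, other nerve genes that were tested and the markers of adventitial fibroblasts and macrophages (blocks from top to bottom); red is higher, blue is lower, and colors end at -1.5 and 1.5. Cadm3 and, in the adventitial block, Pi16, Mfap5, Cd248, Dpt and Clec3b are red in animals 66, 72 and 77, and most nerve genes between them are pale.

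In the pathways of the 2 receptors, some genes stood out in single animals. Ret, the signalling partner of Gfra3, was at 20.3 CPM in diabetic Hif1a+/- animal 77 and at 5.24 to 10.7 CPM in the other 3 groups, with a median of 7.01 CPM in its own group (0.40 ± 0.38; edgeR adjusted p = 0.685). Artn, the ligand of Gfra3, had 0 to 4 reads per library and was not tested. Gfra1 and Gfra2 had log2 fold changes of -0.32 ± 0.17 and -0.05 ± 0.41 (edgeR adjusted p = 0.457 and 0.969). Gfra1 in diabetic Hif1a+/- (7.22 to 9.59 CPM) lay narrowly below each non-diabetic Wt (9.64 to 11.3 CPM), as did 7.11% of all tested genes. Ntrk3, the receptor for neurotrophin-3, was at 1.85 CPM in animal 72 and had a median of 0.53 CPM in that group, and its log2 fold change was 0.64 ± 0.53 with and -0.27 without that library. Sort1, the co-receptor of Ngfr for pro-neurotrophins, was at 32.0 to 43.1 CPM throughout (0.11 ± 0.11; edgeR adjusted p = 0.678).

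Sema3a, a repellent of sympathetic axons, was lower in each diabetic Hif1a+/- LV (3.17 to 4.11 CPM) than in each non-diabetic Wt (4.66 to 6.66 CPM), as were 7.11% of all tested genes. Its log2 fold change was -0.63 ± 0.17 (edgeR adjusted p = 0.420; DESeq2 adjusted p = 0.189). Sema3a was also lower in each diabetic Wt, at 3.94 to 4.26 CPM, as were 3.4% of all tested genes. The non-diabetic Hif1a+/- LVs were at 3.93 to 4.73 CPM. Within the S100 family, S100a10, the partner of annexin A2, was higher in each diabetic Hif1a+/- LV (48.6 to 54.4 CPM) than in each non-diabetic one (37.4 to 42.9 CPM), as were 11.2% of all tested genes. Its log2 fold change was 0.39 ± 0.10 (edgeR adjusted p = 0.216; DESeq2 adjusted p = 0.0356), and it was the 1 gene of the nerve lists apart from Cadm3 that DESeq2 called. S100a8 and S100a9, calcium-binding proteins of neutrophils, had log2 fold changes of 2.90 ± 1.01 and 2.75 ± 0.94 (edgeR adjusted p = 0.328 and 0.319), with their highest levels, 6.35 and 10.2 CPM, in 1 non-diabetic Wt library. Sox9, a relative of Sox10, was at 3.82 to 5.24 CPM throughout (0.15 ± 0.16; edgeR adjusted p = 0.707).

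Of the 118 tested nerve list genes that are no members, 67 had an estimate above 0 and 51 below in diabetic against non-diabetic Hif1a+/-, with a median of 0.05. edgeR called 0, with 12 at an unadjusted p under 0.05, beside 1764 of the 14706 tested genes. DESeq2 called 1, where it called 1.44% of all genes. With no filter on low counts edgeR called 6 nerve list genes apart from Cadm3, which were S100a6, S100a8, S100a9, S100a10, Cdh2 and Wif1. The nerve lists held 185 genes of the files, members included, and this fit called 2.19% of all genes. In diabetic Hif1a+/- against non-diabetic Wt, 59 were above and 59 below 0, where 50.8% of all tested genes were below. Neither tool called any of the 118, where edgeR called 0.0% and DESeq2 0.454% of all genes. At an unadjusted edgeR p under 0.05 there were 12 of them, beside 1302 of the 14706 tested genes. All 3 samples lay above the other 3 for 10 of these genes (8.47%) and below for 8 (6.78%) between the Hif1a+/- groups, where 11.2% and 13.2% of all tested genes did. In non-diabetic Hif1a+/- against non-diabetic Wt, 41 were above and 77 below 0, with a median of -0.037 beside 0.002 over all tested genes. There 0 lay above and 6 below without overlap (5.08%), where 2.26% of all tested genes lay below. In diabetic Hif1a+/- against diabetic Wt, 53 were above and 65 below 0.

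**Figure D5:**
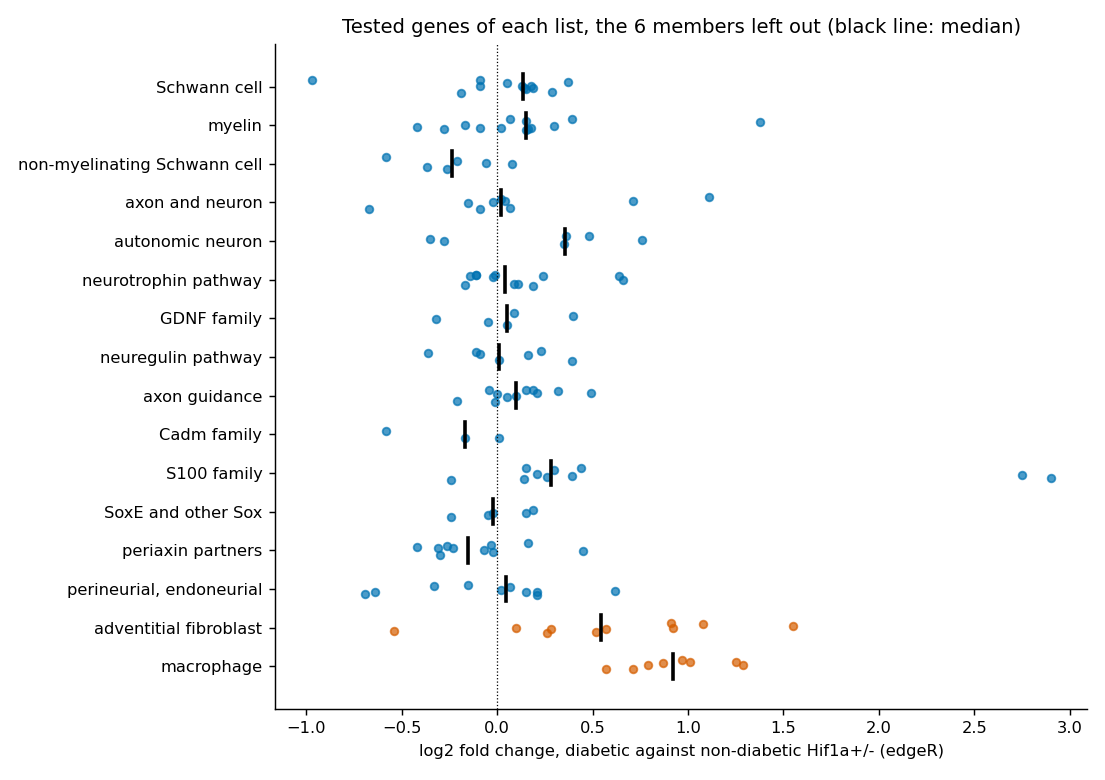
edgeR log2 fold change between diabetic and non-diabetic Hif1a+/- (x axis) of every tested gene of 14 nerve lists (blue) and of 2 lists of other cell types (orange), with the 6 members left out; each dot is 1 gene and the black line is the list's median. The medians are 0.13 for Schwann cell genes and 0.15 for myelin genes, and 0.54 for adventitial and 0.92 for macrophage genes.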

How the data were processed

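The authors made 3′-seq libraries from LV RNA, aligned reads with STAR (2.5.2b, per the labels) to GRCm38 with GENCODE annotation and assigned them to genes with htseq-count; whether strand was used is not given in the sources used here. The deposited values used were whole-number read counts per gene and sample, from which 5 tally lines were left out. The deposited normalized counts were not used. Symbols and coordinates came from GENCODE M21 (GRCm38) and covered 46488 of 46983 genes.

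The counts were fitted with edgeR 4.0.16 (R 4.3.3) by the quasi-likelihood test, with TMM scaling, filterByExpr by group, 12 samples in 1 fit, 8 residual degrees of freedom and Benjamini-Hochberg adjustment over 14706 genes. The biological coefficient of variation was 13.7%. DESeq2 1.42.0, DESeq2 size factors, no filter and leaving out each sample were alternatives. Correlations used log2 CPM with a prior count of 2. The script was tested on simulated counts.

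The members, the gene lists and the rule for named genes were chosen with earlier results of these data known. The rule named the members, a set of well-known nerve genes, the 3 genes of each nerve list with the largest change between the Hif1a+/- groups, the genes most like the members, and markers of other cell types whose summed level is given. S100a10 and the genes that overlap a member fall outside it and were chosen after their values were seen. Some genes of the lists are not reported here by name.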

Additional observations from a re-analysis of the deposited data

How the results depend on the processing

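No paired analysis was made because the sample labels do not give the litter of each animal. Whether Wt and Hif1a+/- animals of the same kind of pregnancy shared a litter is therefore not known here. Between the groups the number of genes called at an adjusted p under 0.1 depended on the tool and the filter. DESeq2 called 201 genes in diabetic against non-diabetic Hif1a+/-, 24 in diabetic Hif1a+/- against diabetic Wt, 68 against non-diabetic Wt, 4 in diabetic against non-diabetic Wt and 1 in non-diabetic Hif1a+/- against Wt. With no filter on low counts edgeR called 592, 220, 445, 129 and 33 genes in the same order and 78 in the interaction. Cadm3 was among those called without the filter in the 3 comparisons of diabetic Hif1a+/- and in the interaction, where its log2 value was 1.46. Nerve list genes apart from the members numbered 6, 2, 2, 2 and 2 in that order and 2 in the interaction, among them Map2 and Ahnak2 against non-diabetic Wt. The shares of all genes called were 2.19%, 0.812%, 1.64%, 0.476% and 0.122% in that order and 0.288% in the interaction. Leaving out 1 library gave 0 to 38, 0 to 2 and 0 to 1 genes in the first 3 comparisons, 0 in the next 2 and 0 to 1 in the interaction. The count of 38 came without animal 72, whose fit called Cadm3 and no other nerve list gene; without animal 66 the 3 counts were 1, 1 and 1, and without diabetic Wt animals 7 and 80 the first was 9 and 12. The cause was not tested. Of 540 member values under the alternatives, 533 moved by less than the SD between replicates on the log2 scale and 7 by more (4 of Cadm3, 3 of Sox10), and 16 changed sign. The members other than Cadm3 had 9 to 52 reads per library, which limits what their levels can show.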
